A study of Homo sapiens with 6 samples.

Results

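Notch signalling was read through 9 genes in T98G cells depleted of the kinase DYRK1A: the receptors *NOTCH1*, *NOTCH2* and *NOTCH3*, the ligands *JAG1* and *JAG2*, the DNA-binding factor *RBPJ*, the coactivator *MAML1*, and the target genes *HES1* and *HEY1*. They were taken by gene symbol from the table of normalized counts, which holds 23030 genes, and each of the 9 was found there once. T98G is an established human glioblastoma line. The cells received a lentivirus expressing a control short hairpin RNA (shControl) or a short hairpin against DYRK1A (shDYRK1A), both groups were selected with puromycin and left to recover without it, and 3 libraries of each condition, named 1A, 1B and 1C, were sequenced. The cells of both conditions had been mixed, in equal numbers, with a constant number of fly Kc167 cells before RNA extraction, and the fly reads set the size factor of each library. All libraries come from 1 cell line.

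In Notch signalling a ligand on one cell binds a receptor on its neighbour, the receptor is cut by a metalloprotease and then by gamma-secretase, and the freed intracellular domain moves to the nucleus. There it joins RBPJ on DNA and recruits a Mastermind protein such as MAML1, and genes of the HES and HEY families of transcriptional repressors are switched on. In the absence of the receptor domain RBPJ holds corepressors at the same genes. The pathway is known in glioblastoma for its part in keeping cells in a stem-like state.

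In shDYRK1A cells the 3 receptors, *RBPJ*, *HEY1* and, less firmly, *JAG1* were lower, whereas *MAML1*, *JAG2* and *HES1* did not pass the test. The lowest fold change among the 9 genes was that of *NOTCH3*, whose transcripts fell to 38.2% of the control level. *RBPJ* fell to 56.5% and *HEY1* to 57.5%, *NOTCH1* to 65.7% and *NOTCH2* to 66.2%. These are changes against the fly reads, on which scale the median of all 9697 tested genes was itself lower by a log2 fold change of -0.40. RNA per cell and the number of T98G cells recovered per fly cell cannot be told apart on that scale.

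The libraries held 33708297 to 42154438 counts in human genes. The size factors ran from 0.821 to 1.03 in the shControl libraries and from 1.06 to 1.21 in the shDYRK1A libraries. *DYRK1A* itself had normalized counts (counts divided by the size factor) of 2227, 2234 and 1895 in shControl libraries 1A, 1B and 1C, and of 1482, 1056 and 1285 in shDYRK1A libraries 1A, 1B and 1C. The groups did not overlap, and the log2 fold change was -0.73 ± 0.15 (SE), with an adjusted p of 5.33e-06. On the same scale the median of all 9697 tested genes was -0.40, and 63.6% of them had non-overlapping, lower groups. In CPM (raw counts scaled to a common library total) the fall was smaller. *DYRK1A* had 46.7 ± 0.465 CPM in shControl and 37.6 ± 3.41 CPM in shDYRK1A (SD, n = 3), without overlap. The cell identity was checked with lists of 5 markers each. Of the markers of mesenchymal glioblastoma lines, *VIM* and *CD44* had 1935 and 1462 CPM in shControl. *TNC* had 24.7, *CHI3L1* 4.36 and *NES* 1.96 CPM there. Of the astrocyte markers, *SLC1A3* had 17.1 CPM, *GFAP* was at 0.0482 CPM, and *AQP4* and *S100B* had 0 counts. The epithelial list summed to 190 to 217 CPM over the 6 libraries, of which *KRT18* made up 179 CPM in shControl, and *KRT5* had 0 counts. Neuronal markers summed to 12.5 to 13.2 CPM in shControl and 9.62 to 9.89 CPM in shDYRK1A, with *SNAP25* at 10.6 and 5.80 CPM, *SYP* at 2.16 and 3.93 CPM, and *STMN2* at 0. The oligodendrocyte, microglial and endothelial lists each summed to 2.84 CPM or less. The part of these markers in the results was not tested. Library shDYRK1A 1B stood apart with 15.6% unmapped reads against 8.44 to 11.9% in the others. Its human gene counts per size factor were also the lowest, at 31230657 against 33310112 to 48090252. In that library 8 of the 9 Notch genes had their lowest normalized count. The share of all genes with their lowest count there was not computed. Each fit was therefore repeated without shDYRK1A 1B.

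Differences were tested by edgeR's quasi-likelihood test on the raw counts with the spike-in size factors, and the p-value of each gene was adjusted (Benjamini-Hochberg) over every gene in the fit. Of the 9 genes, 5 (*NOTCH1*, *NOTCH2*, *RBPJ*, *MAML1* and *HEY1*) exceeded a mean of 10 CPM and were tested among 9697 genes. The other 4 (*NOTCH3*, *JAG1*, *JAG2* and *HES1*) lay below it and were tested in a wider fit of 17623 genes that passed edgeR's filterByExpr. In the first fit 4 of the 5 genes were lower at an adjusted p below 0.05, where 63.4% of all tested genes were, and 0 were higher, where 1.08% were. The count of higher members was also 0 at an unadjusted p below 0.05 and in DESeq2. In the wider fit 2 of the 4 were lower, against 44.1% of all genes. A log2 fold change below -0.7 was reached, with the same adjusted p, by 2 of the 5 (*RBPJ* and *HEY1*) and by 1 of the 4 (*NOTCH3*), where 14.3% of the tested genes reached it in both fits. The 3 shDYRK1A libraries lay below all 3 shControl libraries for 6 of the 9 genes. Of these, *NOTCH1*, *NOTCH2*, *RBPJ* and *HEY1* belong to the 9697 genes, of which 63.6% did the same. *NOTCH3* and *HES1* belong to the wider fit, for which no such share was computed. With so few genes, nothing is read from these counts about the 9 genes as a group.

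Since the fall of all genes enters every value, each gene was also measured relative to the other genes of its library, with TMM scaling. On that scale the median of all genes was 0.00, 2769 genes (28.6%) were lower and 2652 (27.3%) higher, whereas on the spike-in scale 6145 were lower and 105 higher. *NOTCH1*, *NOTCH2*, *RBPJ* and *HEY1* were lower on both scales, *MAML1* was higher on the TMM scale, and of the 4 genes in the wider fit 1 (*NOTCH3*) was lower with TMM, against 20.9% of its genes.

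**Figure D1:**
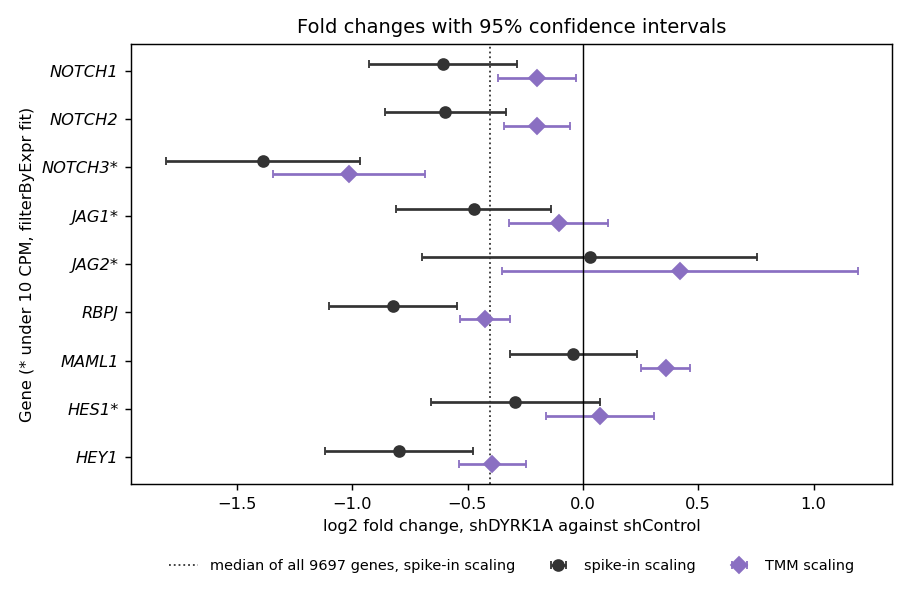
Log2 fold changes of the 9 genes (x axis, shDYRK1A against shControl) with 95% confidence intervals, from 3 libraries per condition, under spike-in scaling (circles) and TMM scaling (diamonds). The dotted line is the median of all 9697 genes under spike-in scaling, -0.40. Under spike-in scaling the *NOTCH3*, *RBPJ* and *HEY1* intervals lie wholly to its left, and the *MAML1* interval wholly to its right. The median of the wider fit, from which *NOTCH3* comes, was -0.37.

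The receptors are single-pass proteins that carry the signal from the membrane to the nucleus. *NOTCH1* (ENSG00000148400, chr9:136494444-136545862, GRCh38, minus strand) had normalized counts of 701.2, 778.5 and 613.4 in shControl libraries 1A, 1B and 1C and of 467.9, 425.3 and 481.0 in the shDYRK1A libraries. All shDYRK1A values lay below all shControl values. The log2 fold change was -0.61 ± 0.16 (SE), with an adjusted p of 0.00068 (-0.56 without shDYRK1A 1B). Its distance from the median of all genes was -0.20, and 22.6% of the tested genes had a lower fold change. With TMM scaling it was -0.20 with an adjusted p of 0.046, and that call was lost without shControl 1B (-0.16), shControl 1C (-0.20) or shDYRK1A 1A (-0.14).

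*NOTCH2* (ENSG00000134250, chr1:119911553-120069626, minus strand) was the receptor with the most reads, at 8753, 9026 and 7569 normalized counts in shControl and 6262, 4450 and 6061 in shDYRK1A. The groups did not overlap, and shDYRK1A 1B was the lowest of the 6. The *NOTCH2* log2 fold change was -0.60 ± 0.13 (SE, adjusted p of 5.24e-05), at a distance of -0.19 from the median, and 23.7% of the tested genes had a lower one. It was -0.46 without shDYRK1A 1B. With TMM scaling it was -0.20 (adjusted p of 0.0217), a call lost without shControl 1B (-0.20) or shControl 1C (-0.19). Without shDYRK1A 1B the TMM value moved to -0.11 and still passed (adjusted p of 0.0159). *NOTCH2NL*, a partial copy of the 5′ end of *NOTCH2* whose near-identical sequence may share reads with it, held 22.3 ± 8.36 normalized counts in shControl and 15.8 ± 2.42 in shDYRK1A (SD, n = 3). Multimapping reads were left out of the counts, so these values do not show how many reads are shared.

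*NOTCH3* (ENSG00000074181, chr19:15159038-15200981, minus strand), known as the receptor of vascular smooth muscle and pericytes, was the least abundant of the 3. The shControl libraries 1A, 1B and 1C had normalized counts of 219.1, 249.6 and 161.6, and the shDYRK1A libraries 102.1, 59.3 and 79.1. The highest shDYRK1A value lay well below the lowest shControl value, although the raw counts were small, between 64 and 220 per library. The log2 fold change was -1.39 ± 0.21 (SE), with an adjusted p of 3.60e-09, and 1.27% of the 17623 genes had a lower one. It was -1.21 without shDYRK1A 1B and -1.01 with TMM scaling (adjusted p of 6.5e-05), and it passed the test in all 6 fits that left out 1 library on either scale.

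**Figure D2:**
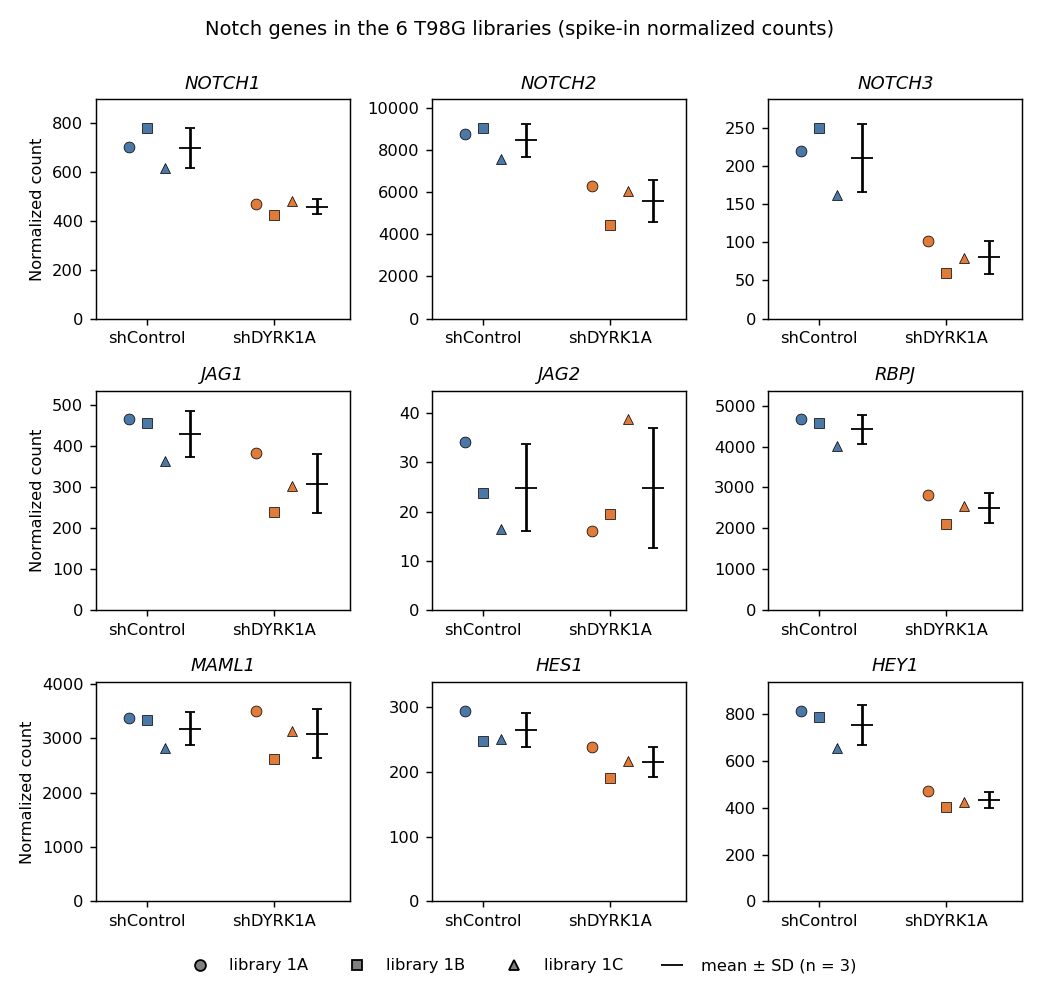
Normalized counts (y axes, from 0) of the 9 genes in the 3 shControl and 3 shDYRK1A libraries, with a circle, square and triangle for libraries 1A, 1B and 1C and the mean ± SD beside them. *NOTCH1*, *NOTCH2*, *NOTCH3*, *RBPJ*, *HES1* and *HEY1* have all shDYRK1A points below all shControl points, and *JAG1*, *JAG2* and *MAML1* do not.

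The mix of receptors was then compared within each library, where no scaling between libraries enters. Counts were divided by exonic length to set the receptors beside each other. *NOTCH2* made up 84.9% ± 0.735 of the receptor transcripts in shControl and 86.2% ± 1.18 in shDYRK1A (SD, n = 3, two-sided exact permutation p = 0.3). *NOTCH1* made up 11.3% ± 0.364 and 11.6% ± 1.36 (exact permutation p = 0.9). The *NOTCH3* share was 3.75% ± 0.451 in shControl and 2.19% ± 0.295 in shDYRK1A, with no overlap between the groups (exact permutation p = 0.1, the smallest that 3 against 3 libraries can give). As shares of reads, without division by length, *NOTCH3* made up 2.23% ± 0.275 in shControl and 1.30% ± 0.171 in shDYRK1A (SD, n = 3). The 95% Wilson interval of a single library, which is not centred on the share, had a half-width of at most 0.328 percentage points. For the read shares of *NOTCH1* and *NOTCH2* the half-width was at most 0.754 and 0.799 points. That is larger than the difference between the groups for *NOTCH1* (0.130 points) and about as large as that for *NOTCH2* (0.802 points). Intervals cover counting error only.

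**Figure D3:**
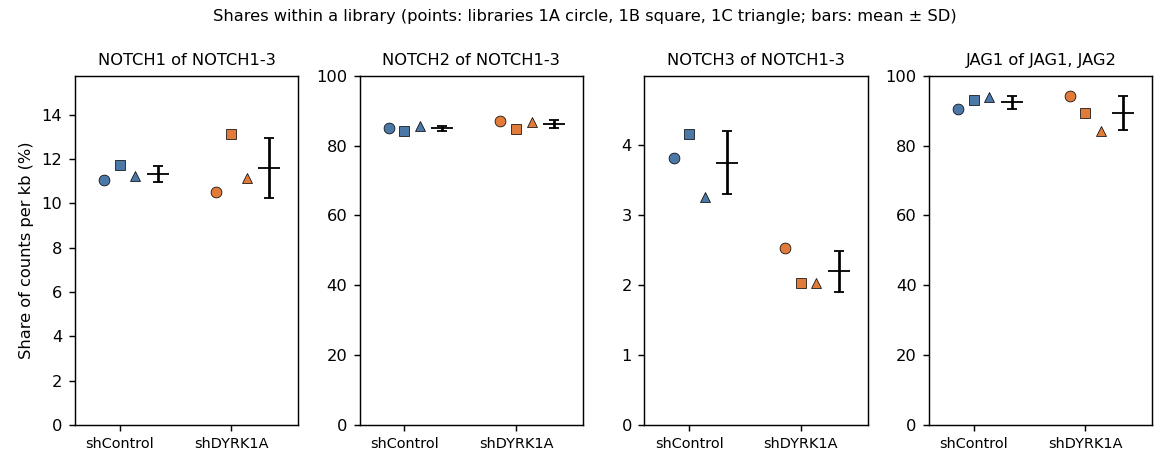
Share of each receptor among the transcripts of *NOTCH1*, *NOTCH2* and *NOTCH3*, and of *JAG1* among *JAG1* and *JAG2*, in percent of counts per kilobase of exon, for each library (circle, square and triangle for 1A, 1B and 1C) with the mean ± SD. The *NOTCH3* share is the one without overlap, 3.75% in shControl and 2.19% in shDYRK1A.

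*JAG1* and *JAG2* encode membrane ligands of the Jagged family. *JAG1* (ENSG00000101384, chr20:10637684-10674107, minus strand) had normalized counts of 465.0, 457.3 and 364.1 in shControl and 383.8, 240.0 and 302.3 in shDYRK1A. The groups overlapped, since shDYRK1A 1A exceeded shControl 1C. A log2 fold change of -0.47 ± 0.17 (SE) was fitted, with an adjusted p of 0.0161, and 37.2% of the 17623 genes had a lower one. The call was lost when shControl 1A (-0.41), shControl 1B (-0.42), shDYRK1A 1B (-0.32) or shDYRK1A 1C (-0.46) was left out, and with TMM scaling (-0.11, adjusted p of 0.443).

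*JAG2* (ENSG00000184916, chr14:105140981-105168824, minus strand) had 17 to 47 raw counts per library. The shControl libraries had 34.1, 23.8 and 16.5 normalized counts and the shDYRK1A libraries 16.1, 19.5 and 38.7, so that the groups overlapped fully. The log2 fold change was 0.03 with a 95% confidence interval of -0.70 to 0.76 (adjusted p of 0.957), above that of 86.0% of the 17623 genes. A change of *JAG2* in either direction was not detectable at this depth. A second gene annotated in the same orientation (*AL512356.1*) covers 7.33% of its exonic sequence, so its count is uncertain. *JAG1* made up 92.4% ± 1.79 of the transcripts of the 2 ligands per kilobase in shControl and 89.3% ± 4.98 in shDYRK1A (SD, n = 3, exact permutation p = 0.5).

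*RBPJ* encodes the DNA-binding factor to which the Notch receptors signal. Human promoter windows (250 bases before to 50 after a RefSeq start, GRCh38.p14) were searched on both strands for GTGGGAA, the site known for RBPJ, and for CTCGCGAG, the core of the palindrome known to be bound by DYRK1A at promoters. Windows were available for 8 of the 9 genes, and *HEY1*, which had none, was not searched. GTGGGAA occurred in 6.25% of all 35116 windows and, of the 8 genes, in those of *HES1* and *RBPJ*, whereas CTCGCGAG occurred in 1.02% of all windows and, of the 8 genes, in those of *RBPJ*. *RBPJ* has 5 windows where each of the others has 1, and 3 of the 5 hold CTCGCGAG, at 2 distinct sites since a pair of windows overlap. The windows below show these matches for a gene that fell (*RBPJ*) and a target that did not pass the test (*HES1*). Capitals mark GTGGGAA, its reverse complement TTCCCAC, or CTCGCGAG. In the first *RBPJ* window (chr4:26319496-26319795, plus strand) CTCGCGAG begins 134 bases before the start and the 2 RBPJ sites begin 115 and 73 bases before it. In the second (chr4:26320764-26321063, plus strand) CTCGCGAG begins 23 bases before the start. In the *HES1* window (chr3:194135898-194136197, plus strand) GTGGGAA begins 85 bases before it. Whether any of these letters is bound in T98G was not measured in these libraries.
RBPJ window 1: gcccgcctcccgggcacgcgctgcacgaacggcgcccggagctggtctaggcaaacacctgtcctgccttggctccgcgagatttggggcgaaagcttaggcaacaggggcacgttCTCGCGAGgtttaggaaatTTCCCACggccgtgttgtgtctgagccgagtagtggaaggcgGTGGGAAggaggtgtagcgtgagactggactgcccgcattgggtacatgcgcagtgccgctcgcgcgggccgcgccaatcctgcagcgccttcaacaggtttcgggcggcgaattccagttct
RBPJ window 2: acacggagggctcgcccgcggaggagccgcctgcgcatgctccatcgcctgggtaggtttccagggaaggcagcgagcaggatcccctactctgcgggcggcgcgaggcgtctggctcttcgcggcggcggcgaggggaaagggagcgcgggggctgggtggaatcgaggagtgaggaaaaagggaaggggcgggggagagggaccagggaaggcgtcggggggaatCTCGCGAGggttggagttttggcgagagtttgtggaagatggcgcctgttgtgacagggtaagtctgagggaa
HES1 window: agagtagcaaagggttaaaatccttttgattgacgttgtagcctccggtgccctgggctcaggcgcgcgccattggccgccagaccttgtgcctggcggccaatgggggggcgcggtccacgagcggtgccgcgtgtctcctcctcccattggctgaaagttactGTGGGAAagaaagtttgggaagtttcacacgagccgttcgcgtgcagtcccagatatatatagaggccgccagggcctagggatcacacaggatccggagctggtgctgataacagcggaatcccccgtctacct

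*RBPJ* (ENSG00000168214, chr4:26163455-26435131, plus strand) had normalized counts of 4663, 4564 and 4025 in shControl and 2820, 2114 and 2557 in shDYRK1A. The groups lay far apart, and the highest shDYRK1A library (1A) was well below the lowest shControl library (1C). The log2 fold change was -0.82 ± 0.14 (SE), with an adjusted p of 7.55e-08, and 7.35% of the tested genes had a lower one. It was -0.72 without shDYRK1A 1B. With TMM scaling it was -0.42 (adjusted p of 3.3e-05), and on either scale no single library was needed for the call.

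*RBPJ* had the greatest change of the 5 genes above 10 CPM, and the tested genes whose pattern over the 6 libraries was most like its own were *C5*, *HMMR* and *FAM208A*, by the root mean square difference of log2 normalized counts centred on the shControl mean. The difference was 0.0175 for *C5*, a complement component, 0.0207 for *HMMR*, a hyaluronan-binding protein of the mitotic spindle, and 0.0247 for *FAM208A*, a subunit of the HUSH silencing complex. The median over the other 9696 tested genes was 0.318. The 3 genes were picked as the nearest, so their place under the median was fixed by the choice. The difference also includes the fold change itself, with log2 values of -0.80, -0.82 and -0.81 for *C5*, *HMMR* and *FAM208A*.

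*MAML1* (ENSG00000161021, chr5:179732850-179796511, plus strand) encodes a Mastermind coactivator, which binds the complex of RBPJ and the receptor domain. The shControl libraries had 3364, 3332 and 2827 normalized counts and the shDYRK1A libraries 3504, 2617 and 3134, which overlap. The log2 fold change was -0.04 with a 95% confidence interval of -0.32 to 0.23 (adjusted p of 0.80), and 91.7% of the tested genes had a lower one. It turned to 0.0645 without shDYRK1A 1B and to 0.0028 without shControl 1A, neither of which passed. Relative to the other genes of the library it was higher, at 69.9, 69.6 and 70.5 CPM in shControl and 95.6, 83.8 and 94.1 CPM in shDYRK1A, without overlap. With TMM scaling the log2 fold change was 0.36 ± 0.05 (SE, adjusted p of 9.7e-05), and it passed in all 6 fits that left out 1 library.

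*MAML1* and *RBPJ* were then set against each other within each library. The ratio of *MAML1* to *RBPJ* counts, in which the scaling cancels, lay between 0.702 and 0.730 in the shControl libraries and between 1.23 and 1.24 in the shDYRK1A libraries. The shControl mean was 0.718 ± 0.0141 and the shDYRK1A mean 1.24 ± 0.0087 (SD, n = 3), with an exact permutation p of 0.1, the floor for 3 against 3 libraries. This ratio was chosen after the values of both genes were seen.

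*HES1* and *HEY1* are the targets most often read as an output of the pathway, and both encode repressors that bind DNA as basic helix-loop-helix proteins. *HES1* (ENSG00000114315, chr3:194136145-194138732, plus strand) had normalized counts of 294.6, 247.4 and 251.2 in shControl and 238.2, 190.9 and 217.5 in shDYRK1A. The groups did not overlap, though the lowest shControl library (1B) and the highest shDYRK1A library (1A) were close. The fitted log2 fold change was -0.29 ± 0.19 (SE) with a 95% confidence interval of -0.66 to 0.07 and an adjusted p of 0.188, which did not pass (-0.21 without shDYRK1A 1B). Of the 17623 genes 59.1% had a lower one. With TMM scaling the *HES1* log2 fold change was 0.07 (adjusted p of 0.637).

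*HEY1* (ENSG00000164683) had normalized counts of 813.2, 786.4 and 654.3 in shControl and 470.7, 402.1 and 423.4 in shDYRK1A. Every shDYRK1A library lay below every shControl library. Its log2 fold change was -0.80 ± 0.16 (SE), with an adjusted p of 7.94e-06, and 8.52% of the tested genes had a lower one. With TMM scaling it was -0.39 (adjusted p of 0.00047), and the call held without any 1 library on both scales, between -0.89 and -0.74 with the spike-in (-0.75 without shDYRK1A 1B). In CPM the libraries were close together, at 16.9, 16.4 and 16.3 in shControl and 12.8, 12.9 and 12.7 in shDYRK1A.

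The levels of the 9 genes spanned a wide range once divided by exonic length. In shControl the means were 534.2 normalized counts per kilobase of exon for *MAML1*, 502.7 for *NOTCH2* and 477.4 for *RBPJ*, and the values of these 3 genes overlapped across libraries. Below them followed *HEY1* (232.5), *HES1* (128.2), *NOTCH1* (67.2), *JAG1* (46.1), *NOTCH3* (22.4) and *JAG2* (3.88), each with all 3 libraries below those of the gene before it. In shDYRK1A the order by mean was the same. Across libraries *NOTCH2* still overlapped with *RBPJ*, and *NOTCH1* with *JAG1*, whereas all 3 *MAML1* libraries then stood above all *NOTCH2* libraries. Within a library, where the scaling cancels, each gene of this order exceeded the next in 6 of 6 libraries. The same length, that of all annotated exons of a gene, was used in every library. The length of the transcripts expressed was not measured, and the order of *MAML1*, *NOTCH2* and *RBPJ*, whose values are close, depends on it.

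**Figure D4:**
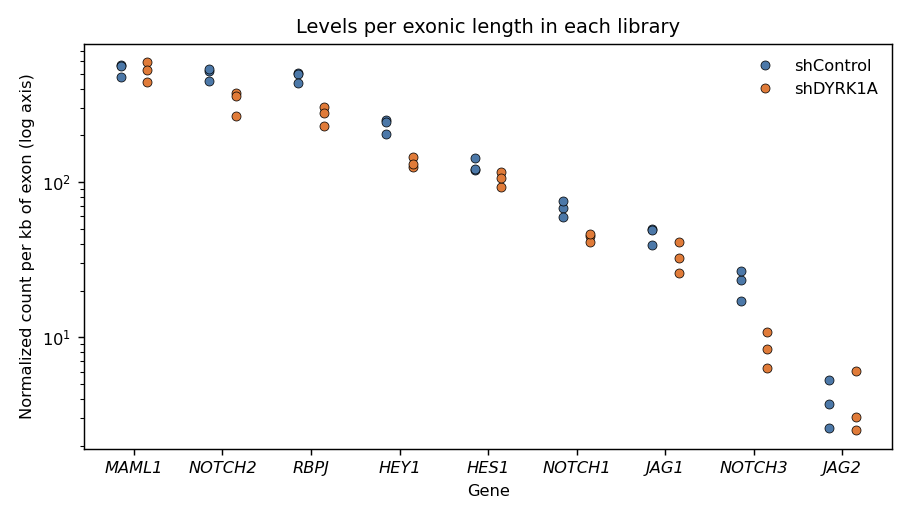
Normalized counts per kilobase of exon (log axis) of the 9 genes, ordered by their shControl mean, with 1 point per library and 3 libraries per condition. In shControl *MAML1*, *NOTCH2* and *RBPJ* overlap across libraries at the top, between 435 and 566 per kilobase, and *JAG2* is lowest at a mean of 3.88.

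The other genes of the pathway were taken from a list of 75, sorted by role. Of these, 51 exceeded a mean of 10 CPM. At an adjusted p below 0.05, 26 of the 51 were lower, 0 were higher and 25 did not pass, against 63.4% lower and 1.08% higher of all genes. The median log2 fold change of the 51 was -0.32, and that of all genes -0.40. With TMM scaling 10 were lower, 17 higher and 24 did not pass, with a median of 0.08. The count of 0 higher genes became 1 (*NCSTN*) at an unadjusted p below 0.05, in DESeq2, and without shDYRK1A 1B.

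Of the 51 genes, 5 were lower with a log2 fold change below -0.7, where 14.3% of all tested genes were, and they were a coactivator, a pair of corepressors and a pair of ubiquitin ligases that act on the ligands. *KAT2B*, a histone acetyltransferase, had 791.3, 746.7 and 644.5 normalized counts in shControl and 391.3, 316.9 and 391.2 in shDYRK1A (log2 fold change of -0.99). *TLE3*, a Groucho corepressor, had 1169, 1304 and 1048 against 684.3, 576.3 and 623.5 (-0.90). *CTBP2*, a corepressor of the CtBP family, changed by -0.75. None of these 3 had overlapping groups. Of all tested genes 63.6% had all shDYRK1A libraries below all shControl libraries, and these 3 were picked for their large change, so the separation adds nothing.

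The ligases *MIB1* and *NEURL1B* ubiquitinate Notch ligands, which is needed for the ligand to be taken up and to pull on the receptor. *MIB1* had 2858, 2759 and 2342 normalized counts in shControl and 1540, 1054 and 1429 in shDYRK1A (log2 fold change of -0.98). *NEURL1B* had 1068, 1053 and 878.2 against 562.4, 491.0 and 626.0 (-0.83). Both were also lower with TMM scaling, by -0.59 and -0.43. In the same role, *EPN1*, an epsin of clathrin-coated pits, was at -0.01 (not passed). With TMM scaling *EPN1* was higher (0.40, adjusted p of 0.00046). Of the 6 genes in this role 3 were lower, against 63.4% of all genes, and 3 did not pass. With TMM scaling 2 were lower and 2 higher, against 28.6% and 27.3% of all genes.

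Of the 8 genes of receptor cleavage, 3 were lower (63.4% of all genes), among them *APH1B*, a subunit of gamma-secretase (log2 fold change of -0.55), and 5 did not pass. *NCSTN*, which encodes the gamma-secretase subunit nicastrin, had 4100, 4008 and 3541 normalized counts in shControl and 5148, 4299 and 4716 in shDYRK1A, with every shDYRK1A library above every shControl library. Its log2 fold change was 0.28 ± 0.14 (SE, adjusted p of 0.0609), and 0.68 with TMM scaling (adjusted p of 2.36e-07). With TMM scaling 4 of the 8 were higher, against 27.3% of all genes, and the other 4 did not pass.

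The remaining roles are likewise set against 63.4% lower of all genes with the spike-in and, with TMM scaling, 28.6% lower and 27.3% higher. In receptor glycosylation and processing 1 of 4 genes was lower, the fringe glycosyltransferase *RFNG* (log2 fold change of -0.37), and the highest was the convertase *FURIN* (0.15, not passed). With TMM scaling 3 of these 4 were higher and 1 did not pass. Among the 12 genes of receptor turnover 8 were lower, with the ubiquitin ligase *ITCH* lowest (-0.68) and the kinase *CDK8* highest (0.09, not passed), and with TMM scaling 4 were lower and 3 higher. Of the 6 coactivators 4 were lower, and *CREBBP*, an acetyltransferase, had the highest value (-0.25, not passed), whereas with TMM scaling 1 was lower and 1 higher. Of the 15 corepressors 7 were lower, and *TLE5*, a shortened Groucho protein, had the highest value (-0.08, not passed), whereas with TMM scaling 3 were lower and 4 higher.

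**Figure D5:**
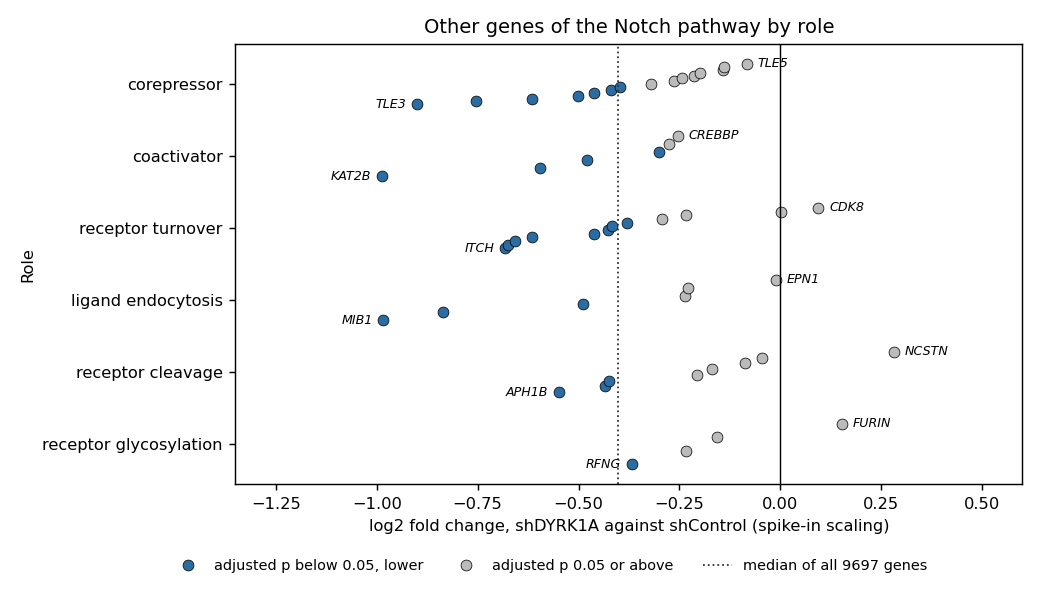
Log2 fold changes (x axis, shDYRK1A against shControl, spike-in scaling) of the 51 tested pathway genes by role, 1 point per gene, blue where the adjusted p was below 0.05. The lowest and highest gene of each role is named, from *KAT2B* at -0.99 to *NCSTN* at 0.28, and the dotted line is the median of all genes, -0.40.

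The remaining 24 listed genes lay under 10 CPM, among them all other ligands and targets and *NOTCH4*. In the wider fit 15 of them were tested, 7 were lower, 0 higher and 8 did not pass, against 44.1% lower of all genes in that fit, and 4 of the 15 were lower past -0.7 against 14.3%. The genes named here from this group were chosen after their values were seen. *LFNG*, the Lunatic fringe glycosyltransferase that alters which ligands a receptor answers to, had 357.9, 346.1 and 275.5 normalized counts in shControl and 136.1, 93.6 and 149.9 in shDYRK1A. Its log2 fold change was -1.36 ± 0.19 (SE, adjusted p of 1.04e-10) and -0.99 with TMM scaling (adjusted p of 1.53e-05).

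*MAML3*, a Mastermind coactivator like *MAML1*, had 34.1 to 37.4 normalized counts in shControl and 49.1 to 68.4 in shDYRK1A, with every shDYRK1A library above every shControl library. Its log2 fold change was 0.65 ± 0.29 (SE) and did not pass (adjusted p of 0.0548), whereas with TMM scaling it was 1.03 and passed (adjusted p of 0.0016).

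*DNER*, a non-canonical ligand of the nervous system, had 124.2, 108.9 and 95.4 normalized counts in shControl and 53.9, 28.7 and 46.9 in shDYRK1A (log2 fold change of -1.34, adjusted p of 2.2e-06, and -0.97 with TMM scaling). *NOTCH4*, the endothelial receptor, was scarce, with 49.9, 32.9 and 38.0 against 22.7, 22.2 and 13.2 (-1.06, adjusted p of 0.0093), and did not pass with TMM scaling (adjusted p of 0.0802). *MFNG*, the Manic fringe, was at 14.8 to 23.4 against 1.85 to 12.3, with a log2 fold change of -1.44 that likewise did not pass with TMM scaling (adjusted p of 0.0731).

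Of the other targets, *HES4* had 52.6 to 81.7 normalized counts in shControl and 37.1 to 47.3 in shDYRK1A (log2 fold change of -0.63, adjusted p of 0.0488), and did not pass with TMM scaling (-0.25, adjusted p of 0.382). *HES6*, *HES7*, *HEY2* and *NRARP* did not pass, at -0.06, -0.28, -0.15 and 0.08. With TMM scaling *HES6* was higher (0.30, adjusted p of 0.0365) and the other three did not pass. *HES5*, *HEYL* and the ligand *DLK1* had 0 counts in every library, which allows up to 0.0712 to 0.089 CPM depending on the library.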

How the data were processed

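RNA-seq of 6 T98G libraries was analysed. Per the study's methods and the labels, the authors sequenced stranded paired-end mRNA libraries, aligned them with STAR to hg38 and dm3 (versions not given in the sources used here), and deposited raw counts per gene for each library (58174 human gene rows; unmapped, multimapping, feature-less and ambiguous reads, at most 15.6%, 2.49%, 4.81% and 3.59% of a library, were left out). The deposited normalized table holds those counts divided by 1 size factor per library (a signal on the fly spike-in scale), and the size factors used here were recovered from it. The authors' own DESeq2 comparison (fold changes and p-values) was not used. All columns were matched to a sample (0 were left over). Gene positions are those of the normalized table, of which 95.8% equal GENCODE release 29 (GRCh38), whose exon lengths were used. Those of *NOTCH1*, *JAG1* and *MAML1* differ (*MAML1* ends at 179796511 there and at 179777286 in release 29), so their values per kilobase may be off.

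Genes with a mean above 10 CPM (9697) were fitted with edgeR 4.0.16 (quasi-likelihood, robust, no covariates) in R 4.3.3. The lower members came from a fit with filterByExpr (17623 genes). Standard errors were derived from the F statistic. Thresholds were an adjusted p of 0.05 and a log2 fold change of 0.7. The script was tested on simulated counts. Shares and the ratio were tested by exact permutation (scipy 1.17.1). Alternatives were TMM, median of ratios, DESeq2 1.42.0, other filters, a replicate block and leaving out each library. Within the pathway list, genes past both thresholds and the lowest and highest of each role were named, and the 3 genes nearest to the member above 10 CPM with the greatest change. The members and lists were chosen with earlier results of these data known. The study's methods state in general that every experiment was done at least 3 times independently, without naming these libraries. The labels do not say whether the 3 libraries of a condition came from separate cultures. The p-values therefore measure the spread between these libraries, which may be technical.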

Additional observations from a re-analysis of the deposited data

How the results depend on the processing

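With TMM scaling and with median of ratios scaling *MAML1* turned from -0.04 to 0.36 and 0.36, *HES1* turned from -0.29 to 0.0743 and 0.0782, and *JAG1* fell short of the threshold at -0.11 and -0.10. Under both, of the 5 members above 10 CPM those past the fold threshold went from 2 to 0 and those higher from 0 to 1, *NOTCH3* stayed past it at -1.01, and pathway genes went to 10 lower and 17 higher. DESeq2 called 1 pathway gene higher. Leaving out 1 library each gave -0.66 to -0.32 for *JAG1*, -0.46 to 0.32 for *JAG2* (-0.0811 to 0.706 with TMM), -0.142 to 0.0645 for *MAML1*, -0.0152 to 0.126 for *HES1* with TMM, 20 to 38 pathway genes lower and 0 to 1 higher. The causes were not tested. Of the 86 member values from the alternatives other than scaling, 77 kept their direction and side of the threshold.

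Libraries share the names 1A, 1B and 1C across conditions. Deviations from the group means correlated at 0.15, 0.07 and 0.13 for same-named libraries, and every library correlated best with its own name, but not every pair exceeded 0.1, so the names were not taken as pairs. With a replicate block *JAG2* was at -0.000287, pathway genes lower numbered 25, and no member call changed. Depth limits *JAG2* most, with 17 to 47 counts per library.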
